A study of Mus musculus with 45 samples.

Results

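Complex I genes of the mouse heart were examined as the 42 gene symbols that start with Nduf among the 23284 listed in each of 6 RNA-seq libraries. By symbol they comprised 15 Ndufa, 10 Ndufb, 2 Ndufc, 8 Ndufs and 3 Ndufv genes, 38 in all, and 4 Ndufaf genes, which code for assembly factors. Levels are given as log2(FPKM + 1), where FPKM stands for fragments counted on a gene, divided by its exon length in kilobases and by the mapped reads of the library, so that a difference of 1 is close to a 2-fold change for all but low genes. Of the 42 genes, 41 were above 0. Ndufs5, an accessory subunit, was listed at 0 in all 6 libraries, whereas 0 of 92 ribosomal protein genes (Rpl and Rps) were, and it was left out of the levels and of the counts of genes that differed.

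Complex I, or NADH:ubiquinone oxidoreductase, is the entry point of the mitochondrial respiratory chain for electrons from NADH. It passes them along a flavin and a row of iron-sulphur clusters to ubiquinone and pumps protons across the inner membrane. Its core subunits are conserved from bacteria, the many supernumerary (accessory) subunits surround that core, and assembly factors help to build it but are absent from the finished enzyme. The heart is rich in mitochondria, and its cardiomyocytes turn increasingly to oxidative metabolism after birth. Among the core subunits encoded in the nucleus, 6 are described here (Ndufv1, Ndufv2, Ndufs1, Ndufs3, Ndufs7 and Ndufs8). Ndufa4 keeps a complex I name but is now assigned to complex IV, and Ndufa4l2 is its paralog, known for induction by low oxygen. The 7 core subunits encoded by mitochondrial DNA are not analysed here.

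All libraries came from primary heart tissue and, per the labels' protocols, from pooled RNA selected for poly(A). The groups were adult heart (2 libraries), heart at the embryonic stage E12.5 (1), E12.5 heart labelled Gata4 KO, called the KO-labelled library below (1), heart after banding (1) and after sham operation (1). The labels name the alleles Gata4fbio, Rosa26BirA, cTNTcre and Gata4flox without saying which of the RNA libraries carried them. They also give neither the banded vessel nor the ages of the banded and sham mice. The 39 other samples of the series are not analysed here.

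Several libraries stood apart. Mapped reads ranged from 12086929 to 21056784, but the share that fell on listed genes was 75.6% to 82.2% in the adult and embryonic libraries against 56.5% in banding and 53.9% in sham, where the ribosomal RNA precursor Rn45s stood at 12.96 and 12.94 against 6.21 to 8.94 elsewhere. In the library labelled Gata4 KO, Gata4 itself stood at 6.13 against 5.93 in E12.5, a ratio of 1.15 (95% counting interval 1.10 to 1.20), so the label has no support from the summed reads of its own target gene. A deletion of part of the gene could leave such a total in place, and no value per exon is given. Cardiomyocyte markers were abundant in all 6 libraries, with summed FPKM from 25012 to 50576 over 8 genes.

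The subunits stood high in every library, and the median of the 4 assembly factors lay far lower. The median of the 37 detected Ndufa, Ndufb, Ndufc, Ndufs and Ndufv genes was 8.10 at E12.5, 7.94 in the KO-labelled library, 7.82 and 7.84 in the adult pair, 7.32 after banding and 7.27 after sham. The median of the assembly factors was 4.83 at E12.5, 4.41 in the KO-labelled library, 4.08 and 4.24 in the adult pair, 2.45 after banding and 2.69 after sham. The distance between both medians was thus 3.27 at E12.5, 3.53 in the KO-labelled library, 3.74 and 3.60 in the adult pair, and widest in banding (4.88) and sham (4.58). Although the subunits of 1 enzyme are assembled in fixed numbers, their transcripts were far from equal. Leaving out Ndufa4 and Ndufa4l2, the FPKM of the most and the least abundant subunit differed 53.3-fold in adult replicate 1 (Ndufb10 over Ndufa11), 126-fold in E12.5 (Ndufa3 over Ndufb4) and 88.6-fold in sham (Ndufa5 over Ndufa11). RefSeq names a pseudogene of Ndufa11 and protein-coding copies of Ndufb4, so the levels of these least abundant genes are uncertain.

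The order of the subunits by level differed between adult and embryo. Over the 37 subunits, Spearman's rho was 0.991 between the adult libraries, 0.982 between both embryonic libraries and 0.993 between banding and sham, but 0.35 and 0.32 between the adult libraries and E12.5. The sham library lay between them, with 0.69 and 0.68 against the adult libraries and 0.70 against E12.5. These are descriptions across genes, which are not independent replicates. The E12.5 library held the highest level of 20 of the 41 detected genes and the sham library the lowest level of 13. These counts were not made over all genes, so they are not read as a trait of complex I. Of all genes measured, 74.6% were lower in sham than in E12.5 and 63.6% lower in adult than in E12.5. Both adult libraries stood above the other 4 for 14 genes (21.9% of all genes with at least 1 FPKM in 1 library), and both embryonic libraries stood above the other 4 for 22 (53%).

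**Figure D1:**
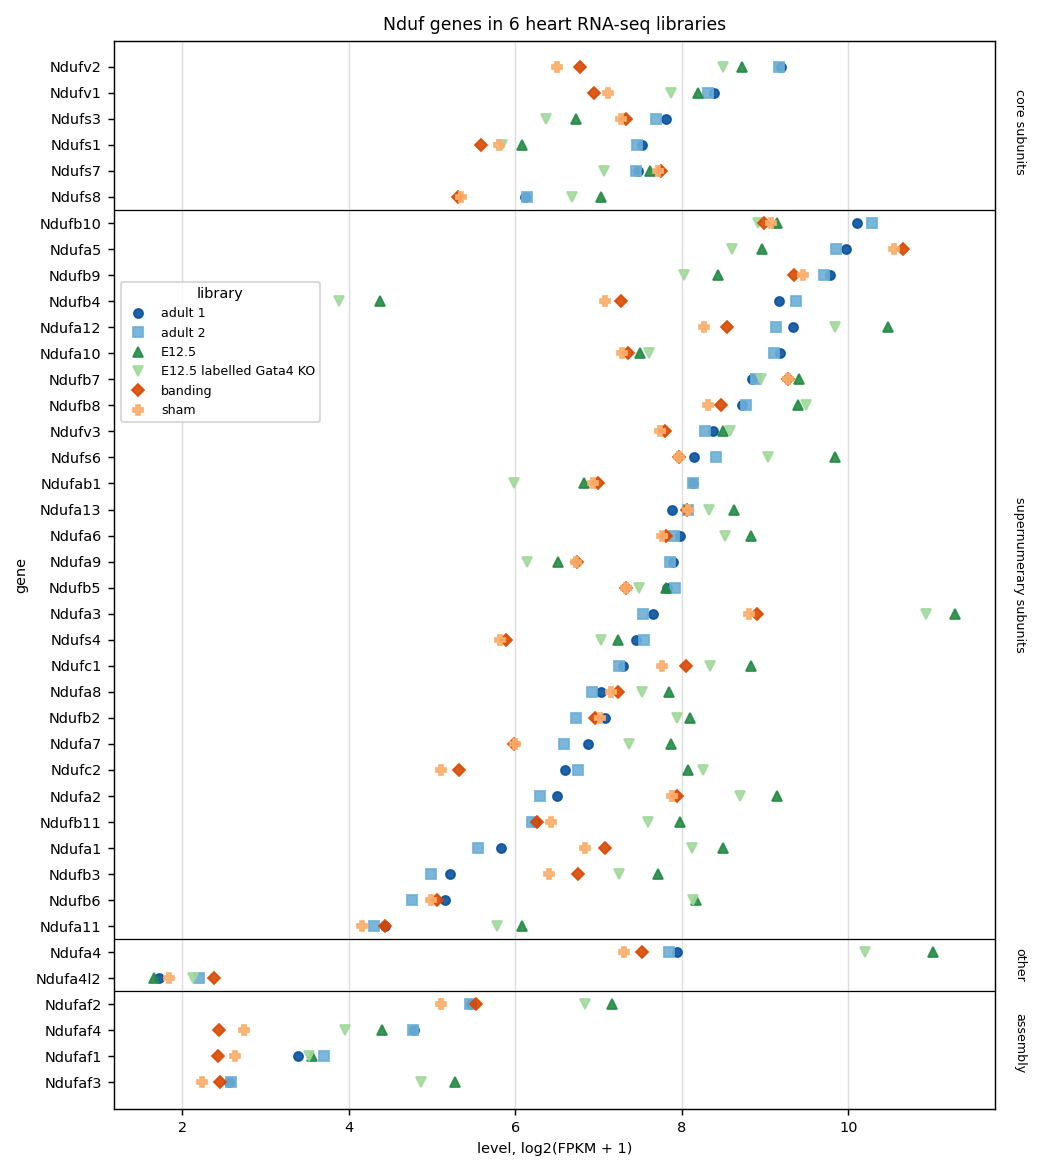
Levels of 40 of the 41 detected Nduf genes on the log2(FPKM + 1) scale (x axis) in the 6 libraries (symbols), grouped into core subunits, supernumerary subunits, Ndufa4 with Ndufa4l2 (marked other) and assembly factors, each ordered by the adult mean. Ndufa4l2 and 3 of the 4 assembly factors sit at the low end, Ndufb4 is far lower in both embryonic libraries, and Ndufa3, Ndufa4 and Ndufb6 are far higher there.

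Between E12.5 and adult heart, the complex I genes moved in both directions. By limma, 12 of the 41 genes were higher in adult and 22 lower at an adjusted p under 0.05, where 23.4% of all 12658 genes tested were called higher and 48.4% lower. The median difference of the 41 genes was -0.65, against -0.51 over all genes tested. Only the adult pair gave a spread for this test (1 residual degree of freedom), which the lone library from E12.5 was taken to share. The labels do not say whether the adult pair stems from separate animals or pools, so its spread may be technical and the p-values measure no more than that. After median-of-ratios scaling, which moved the median of all genes from -0.51 to -0.12, 16 were called higher and 16 lower (31.4% and 36.2% of all genes). In bulk tissue such as this, fewer cells of a type and less RNA per cell cannot be told apart. Markers of cell types, cardiomyocytes included, moved in the same comparison. Summed FPKM of 6 erythroid markers was 21255 at E12.5 against 0.52 and 1.31 in the adult pair (5 lower, with Hba-a1 at 0 throughout), and that of 4 atrial markers was 11174 against 343.3 and 256.2 (3 lower). All 5 epicardial markers were lower in adult (8.482 and 5.998 against 111.2), while 4 of 8 cardiomyocyte markers were higher (50576 and 50476 against 36609). The part of these markers in the complex I differences was not tested.

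The core subunits described here were more often higher than lower in adult heart. Of the 6, 3 rose and 1 fell, where 23.4% of all genes tested were called higher and 48.4% lower. After scaling 5 were called higher and 1 lower (31.4% and 36.2% of all genes). Ndufs1, the largest subunit and a carrier of iron-sulphur clusters, stood at 6.08 at E12.5, 5.84 in the KO-labelled library, 7.52 and 7.47 in the adult pair, 5.59 after banding and 5.80 after sham. Both adult libraries lay above the other 4, and it rose by 1.41 (SE 0.07, limma adjusted p = 0.00469). Ndufs3, a subunit of the arm that faces the matrix, stood at 6.72 at E12.5, 6.37 in the KO-labelled library, 7.81 and 7.69 in the adult pair, 7.32 after banding and 7.27 after sham, and rose by 1.02 (SE 0.09, limma adjusted p = 0.00875). Its sham and banding levels lay between adult and E12.5. Ndufv2, which carries an iron-sulphur cluster next to the NADH site, stood at 8.72 at E12.5, 8.50 in the KO-labelled library, 9.20 and 9.16 in the adult pair, 6.78 after banding and 6.50 after sham. The adult levels lay above E12.5 by 0.46 (SE 0.07, limma adjusted p = 0.0212), while banding and sham were the lowest libraries.

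The other 3 core genes did not rise on the deposited scale. Ndufv1, which binds NADH and the flavin, stood at 8.19 at E12.5, 7.87 in the KO-labelled library, 8.39 and 8.31 in the adult pair, 6.95 after banding and 7.11 after sham. The adult and E12.5 levels lay close together, with a difference of 0.15 (SE 0.07, limma adjusted p = 0.173). Ndufs7, which carries the cluster that hands electrons to ubiquinone, stood at 7.62 at E12.5, 7.07 in the KO-labelled library, 7.47 and 7.45 in the adult pair, 7.75 after banding and 7.71 after sham, a difference of -0.16 (SE 0.06, limma adjusted p = 0.123), and both of these genes were called higher only after scaling. Ndufs8, another carrier of iron-sulphur clusters, stood at 7.03 at E12.5, 6.68 in the KO-labelled library, 6.11 and 6.14 in the adult pair, 5.31 after banding and 5.34 after sham. It fell by 0.90 (SE 0.06, limma adjusted p = 0.00672) and was highest in both embryonic libraries.

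Supernumerary subunits supplied both extremes. Of the 28 detected, 7 rose and 18 fell (23.4% and 48.4% of all genes tested were called higher and lower). Ndufb4, a subunit of the membrane arm, stood at 4.38 at E12.5, 3.88 in the KO-labelled library, 9.17 and 9.37 in the adult pair, 7.27 after banding and 7.08 after sham. The embryonic libraries lay far below the other 4, and the adult level was higher by 4.89 (SE 0.13, limma adjusted p = 0.00398). In FPKM this was 574 and 663 in adult against 19.8 in E12.5, from 3289, 3717 and 189 reads. RefSeq names the protein-coding copies Ndufb4b and Ndufb4c, whose reads the authors' counting could have shared with Ndufb4, so this level is uncertain. Ndufa10, a subunit with a nucleoside-kinase fold, stood at 7.50 at E12.5, 7.61 in the KO-labelled library, 9.18 and 9.10 in the adult pair, 7.36 after banding and 7.28 after sham, and rose by 1.64 (SE 0.08, limma adjusted p = 0.00465). Ndufa9, which sits where the arms of the enzyme meet, stood at 6.51 at E12.5, 6.14 in the KO-labelled library, 7.89 and 7.86 in the adult pair, 6.75 after banding and 6.73 after sham, and rose by 1.36 (SE 0.06, limma adjusted p = 0.00461). For both of these genes the adult libraries lay above all others. The other supernumerary genes that rose were Ndufb9 (1.31), Ndufab1 (1.31), Ndufb10 (1.05) and Ndufa5 (0.95), of which Ndufa5 was higher still in banding (10.66) and sham (10.55) than in adult (9.97 and 9.85).

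**Figure D2:**
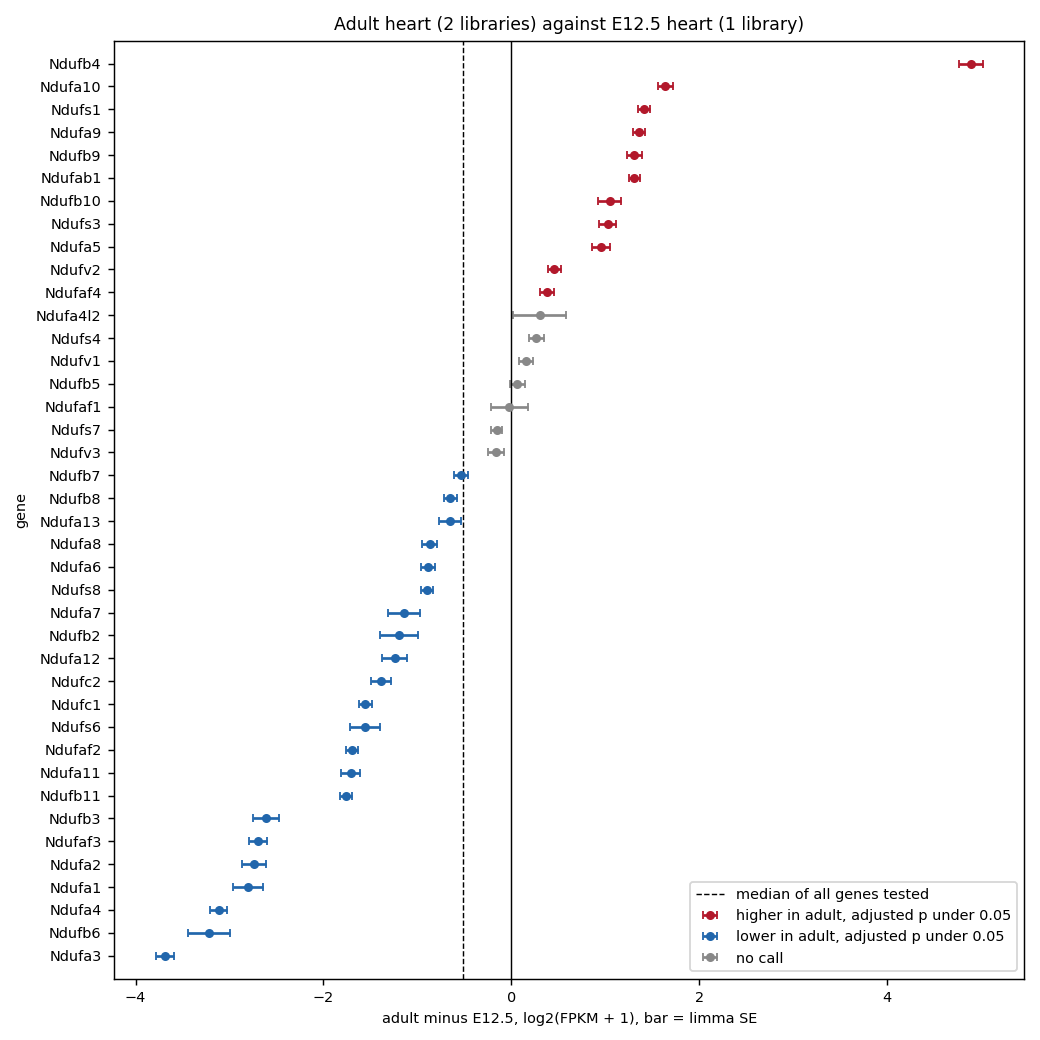
Adult minus E12.5 difference of 40 of the 41 detected Nduf genes on the log2(FPKM + 1) scale (x axis), with limma's standard error as bars, coloured by call, and the median of all genes tested as a dashed line at -0.51. The 11 plotted genes called higher run from 0.38 (Ndufaf4) to 4.89 (Ndufb4) and the 22 called lower from -0.53 (Ndufb7) to -3.69 (Ndufa3).

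The deepest falls were among short genes for small subunits. Ndufa3, a small membrane subunit, stood at 11.28 at E12.5, 10.93 in the KO-labelled library, 7.65 and 7.53 in the adult pair, 8.90 after banding and 8.80 after sham. It was the most abundant Nduf gene of both embryonic libraries, and fell by 3.69 (SE 0.10, limma adjusted p = 0.00398). Ndufb6, of the membrane arm, stood at 8.17 at E12.5, 8.13 in the KO-labelled library, 5.15 and 4.76 in the adult pair, 5.06 after banding and 4.99 after sham. Only the embryonic libraries were high, and it fell by 3.22 (SE 0.22, limma adjusted p = 0.00671). Ndufa1, another small membrane subunit, stood at 8.49 at E12.5, 8.12 in the KO-labelled library, 5.83 and 5.55 in the adult pair, 7.08 after banding and 6.84 after sham, and fell by 2.80 (SE 0.16, limma adjusted p = 0.00561). Ndufa2, a subunit of the matrix arm, stood at 9.15 at E12.5, 8.70 in the KO-labelled library, 6.51 and 6.30 in the adult pair, 7.95 after banding and 7.88 after sham, and fell by 2.74 (SE 0.13, limma adjusted p = 0.00460). For both, adult was the lowest group, and banding and sham lay between adult and embryo. Ndufa4, counted here by its name, stood at 11.01 at E12.5, 10.20 in the KO-labelled library, 7.95 and 7.84 in the adult pair, 7.52 after banding and 7.31 after sham. It stood apart in both embryonic libraries and fell by 3.12 (SE 0.09, limma adjusted p = 0.00398). Its paralog Ndufa4l2 was the least abundant detected gene, at 1.67 at E12.5, 2.13 in the KO-labelled library, 1.73 and 2.21 in the adult pair, 2.39 after banding and 1.84 after sham, and the difference of 0.30 (SE 0.28) did not pass limma's test (adjusted p = 0.410).

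The other supernumerary genes that fell did so by less. Ndufb3 fell by 2.61, Ndufb11 by 1.76, Ndufa11 by 1.71, Ndufs6 by 1.56, Ndufc1 by 1.55, Ndufc2 by 1.39 and Ndufa12 by 1.24. Ndufb2 (-1.20), Ndufa7 (-1.15), Ndufa6 (-0.89), Ndufa8 (-0.87), Ndufa13 (-0.65), Ndufb8 (-0.65) and Ndufb7 (-0.53) were also called lower, but of these 7 only Ndufa6 kept that call after scaling. Ndufs4, Ndufb5 and Ndufv3 passed no test on the deposited scale, at 0.27, 0.06 and -0.17. Ndufs4 and Ndufb5 were called higher after scaling.

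The assembly factors did not move as a group. Ndufaf4, which together with Ndufaf3 acts on an early intermediate of the matrix arm, stood at 4.40 at E12.5, 3.95 in the KO-labelled library, 4.78 and 4.78 in the adult pair, 2.44 after banding and 2.74 after sham. It rose by 0.38 (SE 0.07, limma adjusted p = 0.0310) from E12.5 to adult, and was lowest in banding and sham. Ndufaf3 stood at 5.27 at E12.5, 4.86 in the KO-labelled library, 2.56 and 2.59 in the adult pair, 2.45 after banding and 2.24 after sham. The embryonic libraries were high and the other 4 low, and it fell by 2.70 (SE 0.09, limma adjusted p = 0.00398). Ndufaf2, a paralog of the subunit Ndufa12 that acts late in assembly, stood at 7.16 at E12.5, 6.84 in the KO-labelled library, 5.47 and 5.46 in the adult pair, 5.52 after banding and 5.11 after sham. It had the same pattern and fell by 1.70 (SE 0.06, limma adjusted p = 0.00398). Ndufaf1, which takes part in building the membrane arm, stood at 3.56 at E12.5, 3.53 in the KO-labelled library, 3.39 and 3.71 in the adult pair, 2.43 after banding and 2.63 after sham, with a difference of -0.02 (SE 0.20, limma adjusted p = 0.935). The median difference of the subunits exceeded that of the assembly factors by 0.21, and by 0.22 and 0.27 with either adult library alone. With factors that ranged from -2.70 to 0.38, that median describes none of them well. The 16 further factors measured, described next, had a median difference of -0.24 against -0.65 for the subunits. The sign of this contrast thus depended on which factors were counted.

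Of 17 further assembly factors without an Nduf symbol in the files, 16 were measured, 3 rose and 7 fell (median -0.24), counts near the 23.4% and 48.4% of all genes tested that were called higher and lower. Among those that rose, Aifm1 stood at 6.25 and 6.25 in the adult pair against 4.76 at E12.5. Those that fell most were 1810043H04Rik (-2.17), now called Ndufaf8, and 3110001D03Rik (-1.83).

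Counted by size alone, as a difference of at least 1 on the log2 scale where the higher group reached 5 FPKM (the rule of size), 9 Nduf genes were higher and 16 lower in adult (17% and 38.9% of all genes that could pass). The split depended on the scale. It was 10 higher and 12 lower after median-of-ratios scaling (26.1% and 28.2% of all genes), and 11 higher and 8 lower when each difference was centred on genes of the same length class, an alternative chosen after seeing the data (25.3% and 27.4%). Between the adult libraries, 0 of the members and 0.48% of all genes differed as much, and the largest difference of a member was 0.48 (Ndufa4l2).

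The differences were ordered by transcript length. The exon lengths recovered from the values ran from 349 bases (Ndufa3) to 3632 bases (Ndufaf4), with a median of 739 against 2762 over all genes measured. Of the 15 members up to 600 bases long, 2 were called higher and 13 lower. Of the 13 members over 1000 bases, 6 were called higher and 3 lower (24.2% and 46.9% of other genes of that length), and of the 13 between, 4 and 6 (17.8% and 61.6%). Other genes followed the same order. Their median difference was -1.38 up to 600 bases, -1.13 from there to 1000 bases and -0.45 above, and of those up to 600 bases 14.4% were called higher and 61.9% lower. Against the median of genes in the same length class, 27 members stood higher and 14 lower in adult, with a median of 0.43. Spearman's rho between length and difference was 0.47 over the 41 members and 0.20 over 12643 genes, as a description. The part of fragment size selection in these differences was not tested.

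**Figure D3:**
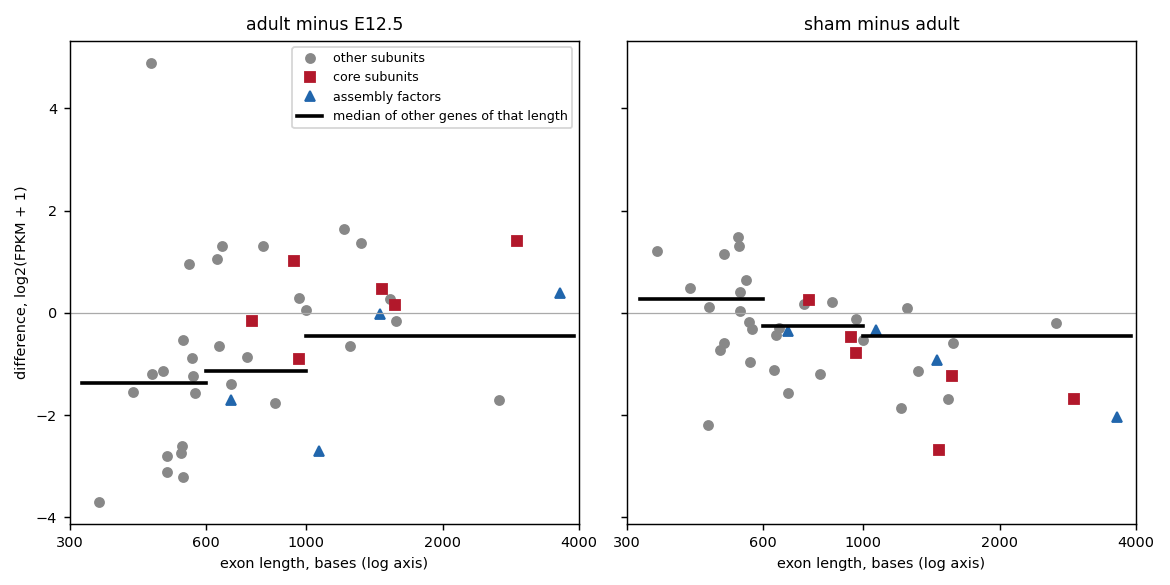
Difference on the log2(FPKM + 1) scale (y axis) against exon length in bases (log x axis) for 40 of the 41 detected Nduf genes, for adult minus E12.5 (left) and sham minus adult (right), with black lines for the median of all other genes in 3 length classes. On the left the short genes sit low apart from Ndufb4 (4.89) and Ndufa5 (0.95), and on the right 11 of the 12 plotted genes over 1000 bases sit below 0.

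Promoter sequences were read for the genes at both ends of the adult comparison. RefSeq windows on GRCm38.p6, from 250 bases before to 50 after the start, were found for 37 of the 42 genes. The letters CGCNTGCGC, the core of the motif of the factor NRF1, occurred on either strand in 9 of the 37 (24.3%) against 7.03% of 27025 genes with a window. The YY1 motif AAGATGGCG occurred in 5 (13.5%) against 1.64%, the ETS motif CCGGAAG of the factor GABP in 5 (13.5%) against 9.93%, the motif TNAAGGTCA of oestrogen-related receptors in 1 (2.70%) against 1.43%, and the box TATAAA in 4 (10.8%) against 15.7%. The GATA motif AGATAAG was found in 0 of the 37 windows against 3.50%, which says only that those letters are not in these windows. No member's window held both the ETS and the YY1 letters. NRF1 letters were found in 4 of the 9 genes with a window that rose and in 4 of the 21 that fell, and a match is not evidence of binding.

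The 250 bases before the start are shown for Ndufb4, the gene that rose most and the one member whose window held the receptor motif, for Ndufs6, which fell and held both the NRF1 and the YY1 letters, and for Ndufb6, among the genes that fell most. All are on the minus strand of GRCm38.p6, 5′ to 3′, with motif matches on either strand in capitals. Ndufb4 (chr16:37654369-37654618) held the NRF1 letters starting 191, 79 and 22 bases before the start and the receptor motif at 57. Ndufs6 (chr13:73328483-73328732) held the NRF1 letters at 15, and its YY1 match lay after the start. Ndufb6 (chr4:40279422-40279671) held the ETS letters at 232.
Ndufb4: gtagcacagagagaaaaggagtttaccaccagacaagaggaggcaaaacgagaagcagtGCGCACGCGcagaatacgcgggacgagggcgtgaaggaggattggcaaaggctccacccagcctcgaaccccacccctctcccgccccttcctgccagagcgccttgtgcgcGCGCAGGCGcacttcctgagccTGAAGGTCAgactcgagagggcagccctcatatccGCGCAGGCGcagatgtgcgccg
Ndufs6: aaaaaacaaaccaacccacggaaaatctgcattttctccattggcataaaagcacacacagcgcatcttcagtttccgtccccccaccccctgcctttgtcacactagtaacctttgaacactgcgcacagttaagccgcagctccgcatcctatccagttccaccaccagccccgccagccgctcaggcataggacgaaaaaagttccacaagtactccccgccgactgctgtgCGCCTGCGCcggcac
Ndufb6: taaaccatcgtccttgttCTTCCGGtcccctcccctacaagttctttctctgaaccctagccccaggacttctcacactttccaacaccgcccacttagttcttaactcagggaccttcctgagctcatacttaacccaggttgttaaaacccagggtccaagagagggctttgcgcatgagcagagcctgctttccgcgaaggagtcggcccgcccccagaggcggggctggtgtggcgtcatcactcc

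Pseudogenes bear on at least 5 members, for which RefSeq names a pseudogene (Ndufa11, Ndufa12, Ndufs5, Ndufs6 and Ndufab1). Only symbols built on a member's own symbol were searched. Pseudogenes listed under other names would be missed, so the remaining members are not shown to be free of them. Reads from such near-identical copies cannot be told apart from those of the gene where the counting did not separate them. Ndufab1, the mitochondrial acyl carrier protein, stood at 6.82 at E12.5, 5.98 in the KO-labelled library, 8.13 and 8.13 in the adult pair, 6.996 after banding and 6.94 after sham. The library labelled Gata4 KO was lowest and both adult libraries highest. Ndufs6, of the NADH end of the matrix arm, stood at 9.84 at E12.5, 9.03 in the KO-labelled library, 8.15 and 8.41 in the adult pair, 7.97 after banding and 7.96 after sham. Ndufa12 stood at 10.48 at E12.5, 9.84 in the KO-labelled library, 9.34 and 9.13 in the adult pair, 8.54 after banding and 8.27 after sham, and Ndufa11, of the membrane arm, at 6.08 at E12.5, 5.79 in the KO-labelled library, 4.44 and 4.30 in the adult pair, 4.44 after banding and 4.16 after sham. These 3 genes were highest in E12.5. Ndufs5, listed at 0 throughout, is the remaining one.

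In the E12.5 library labelled Gata4 KO, complex I genes stood slightly lower than in E12.5 across nearly the whole set. Of the 41 genes, 36 were lower, as were 53.6% of 12062 genes measured, and the median difference was -0.35 against -0.02 over those genes. The count was 36 after median-of-ratios scaling as well and 34 against genes of the same length class. How many counting intervals exclude 1 was not counted over all genes. Among the members, intervals of the ratio lay below 1 for 34 and above 1 for 5, against 7 and 14 between banding and sham. None reached 2-fold (0 of 41 in either direction, against 1.36% higher and 0.742% lower of all genes), and 8 fell by more than 0.48, the largest difference of a member between the adult libraries (6.12% of all genes did). With 1 library in each group there is no replicate check and no p-value.

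The lowest ratio was that of Ndufab1, at 5.98 against 6.82 and thus 0.554 (0.511 to 0.600). Ndufs6 stood at 9.03 against 9.84, a ratio of 0.571 (0.552 to 0.590), and Ndufa4 at 10.20 against 11.01, likewise a ratio of 0.571 (0.558 to 0.585). The bounds in brackets are 95% limits of counting error and cover no other error, as no molecular identifiers were used to tell molecules from PCR copies. All 6 core subunits described here were lower, from -0.23 (Ndufv2) to -0.55 (Ndufs7), and so were all 4 assembly factors, at -0.04 (Ndufaf1), -0.32 (Ndufaf2), -0.41 (Ndufaf3) and -0.45 (Ndufaf4). The median difference of the subunits and that of the assembly factors lay 0.02 apart. Members that stood higher were Ndufc2 (8.26 against 8.07, ratio 1.14, 1.09 to 1.19), Ndufa10 (ratio 1.08, 1.03 to 1.12), Ndufb8 (9.49 against 9.40, ratio 1.07, 1.04 to 1.10), Ndufv3 and the low Ndufa4l2.

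Lower levels were not particular to complex I. Of the listed genes of the other complexes, 8 of 8 were lower for complex II, 15 of 15 for complex III, 17 of 23 for complex IV and 17 of 18 for complex V, against 53.6% of all genes, with medians of -0.39, -0.32, -0.16 and -0.38. All 14 genes of the citric acid cycle and all 16 further assembly factors were lower too. Cell markers moved in the same comparison. Of the 8 cardiomyocyte markers, 7 were lower (summed FPKM 25012 against 36609), while 5 of 6 erythroid markers were higher (64667 against 21255, with Hba-a1 at 0 throughout) and 7 of 7 fibroblast markers were higher (299.7 against 132.6). The part of these markers in the lower complex I levels was not tested.

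**Figure D4:**
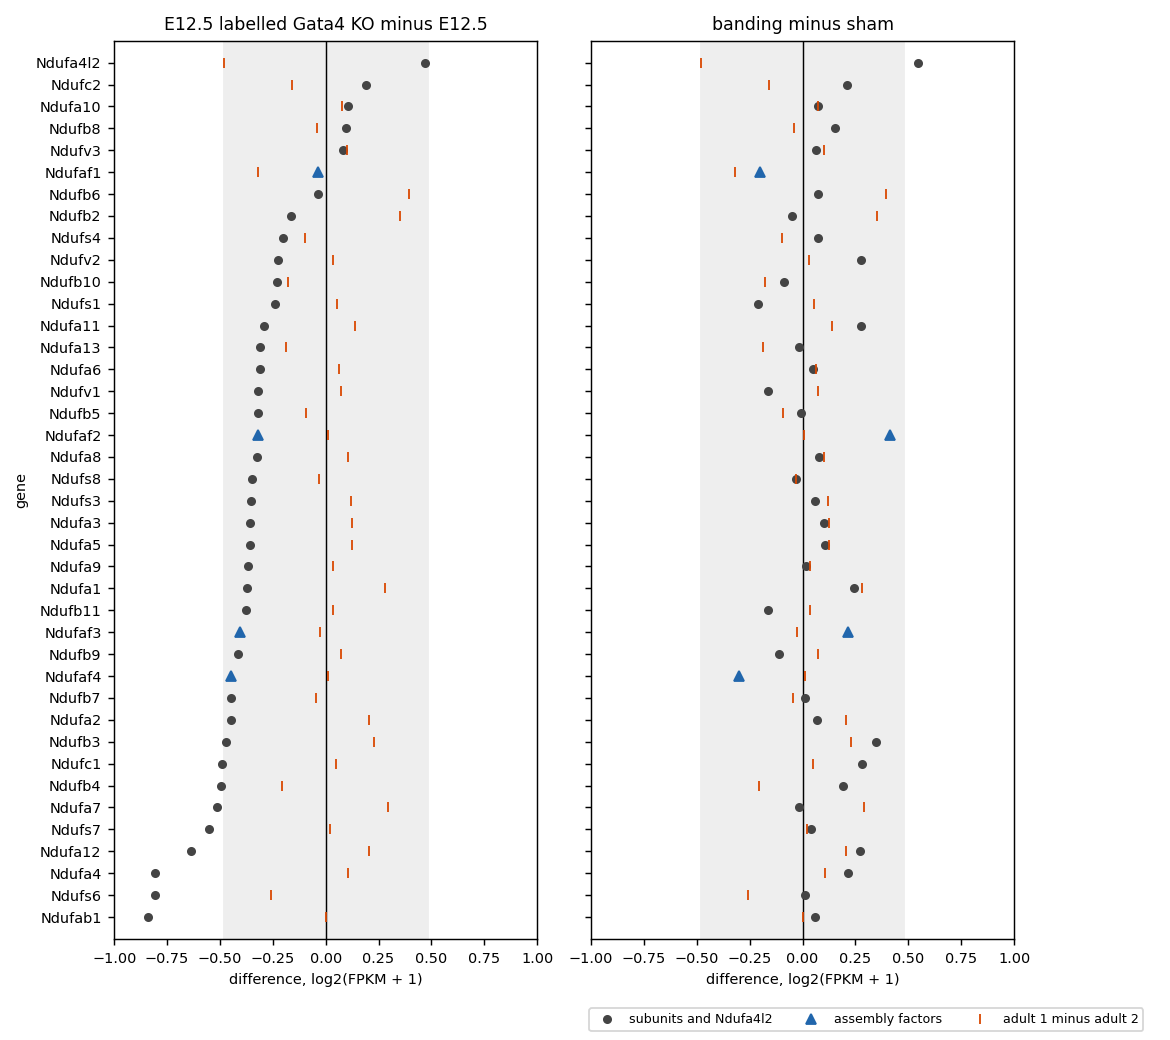
Differences of 40 of the 41 detected Nduf genes on the log2(FPKM + 1) scale (x axis) between the library labelled Gata4 KO and E12.5 (left) and between banding and sham (right), in the order of the left panel, with adult replicate 1 minus replicate 2 as orange ticks and the range of those ticks shaded to 0.48 on both sides. On the left 35 of 40 points lie below 0, and on the right 39 of 40 lie within the shaded range.

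Between banding and sham hearts the complex I genes were nearly level. None passed the rule of size (0 of 41, against 2.51% higher and 0.998% lower of all genes). The median difference was 0.06 against 0.03 over all genes measured. Of the 41 genes, 28 were higher in banding (54.4% of all genes were), 24 after median-of-ratios scaling and 15 against genes of the same length class, so no direction is drawn. The single member that differed by more than 0.48 was Ndufa4l2 (8.85% of all genes were higher by more than that), at 2.39 against 1.84, from 57 and 30 reads and with a ratio of 1.64 (1.04 to 2.64).

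Among members with at least 5 FPKM, the largest differences were those of Ndufaf2, at 5.52 against 5.11 (ratio 1.34, 1.15 to 1.56), Ndufb3, at 6.75 against 6.41 (1.28, 1.14 to 1.43), and Ndufc1, at 8.05 against 7.77 (1.21, 1.12 to 1.31). At the other end Ndufaf4 stood at 2.44 against 2.74 (0.780, 0.648 to 0.937), Ndufs1 at 5.59 against 5.80 (0.861, 0.808 to 0.918) and Ndufaf1 at 2.43 against 2.63 (0.843, 0.623 to 1.14). The assembly factors thus held members at both ends. Fibroblast markers were higher in banding for 7 of 7 genes (summed FPKM 746.5 against 282.5), atrial markers for 3 of 4 (5382 against 312.3) and cardiomyocyte markers for 4 of 8 (26354 against 29354). Nearly all of the atrial sum was Nppa, at 12.39 in banding against 8.28 in sham. The atrial markers Myl4 (1.94 against 1.61) and Myl7 (0.79 against 0.64) were low in both libraries. The part of these markers in the complex I levels was not tested.

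The sham library differed from adult heart more than banding did from sham. By the rule of size, 4 Nduf genes were higher in sham and 12 lower (5.24% and 38.6% of all genes), and 5 and 8 after scaling (11.3% and 23.4%). Of the 13 members over 1000 bases, 12 were lower in sham, by a median of -1.24 where other genes of that length had -0.46 and 70.7% of them were lower. Of the 15 members up to 600 bases, 6 were lower, a share near the 40.8% of other genes of that length. All 8 cardiomyocyte markers were lower in sham (summed FPKM 29354 against 50576 and 50476), as were 69.2% of all genes measured. After scaling 6 of these markers were lower and 2 higher. The part of the markers in these differences was not tested. Ndufv2 was lower by 2.68 on the log2 scale, whereas Ndufa2 was higher by 1.48. Against E12.5, sham had 3 members higher and 23 lower (10.2% and 58.2% of all genes), which became 8 and 8 after scaling (23.4% and 32.8%) and 10 and 7 when centred on genes of the same length class (20.2% and 30.6%), so no direction is drawn. The operation, the age of the mice, the share of Rn45s reads and the preparation of these libraries cannot be told apart here. Comparisons with sham, adult and E12.5 share libraries and are not independent.

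As a share of the reads on listed genes, which does not depend on the mapped total, Nduf genes took 1.47% at E12.5, 1.15% in the KO-labelled library, 1.23% and 1.23% in the adult pair, 1.11% after banding and 1.13% after sham. This sum includes Ndufa4, which ranked 2 by level among the subunits at E12.5 but 16 and 19 in the adult pair. A share without Ndufa4 was not computed. The widest exact 95% interval, that of sham, ran from 1.13% to 1.14% and covers counting error only. E12.5 was the highest library and the adult pair came next. The listed genes include Rn45s, with 652906 reads in banding and 552795 in sham against 29588 and 35410 in the adult pair. Its part in the order of the adult pair, banding and sham was not tested. The share of complex V genes ran the other way between adult and E12.5, at 1.46% and 1.48% in adult against 1.36%. Per read on complex V genes there were therefore 1.08 reads on Nduf genes at E12.5, 1.04 in the KO-labelled library, 0.843 and 0.828 in the adult pair, 1.45 after banding and 1.37 after sham. Against the citric acid cycle genes the ratio was 2.39 at E12.5, 0.961 and 0.973 in the adult pair and 2.85 after sham. Assembly factors took 0.0298% at E12.5, 0.0229% in the KO-labelled library, 0.0177% and 0.0180% in the adult pair and 0.0102% after banding as after sham.

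**Figure D5:**
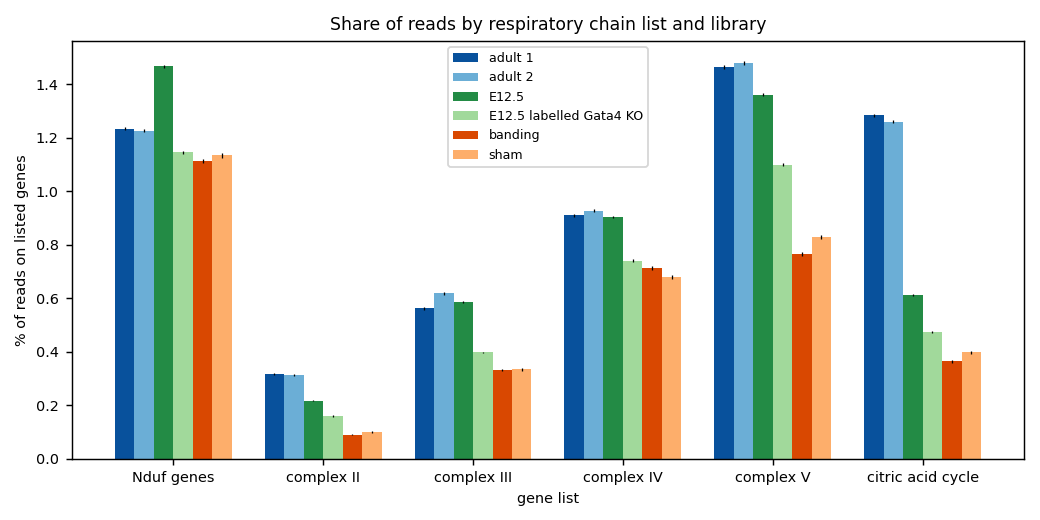
Percent of reads on listed genes (y axis, from 0) that fell on the 42 Nduf genes and on the lists of complexes II to V and of the citric acid cycle (x axis) in each of the 6 libraries (bars), with exact 95% counting intervals. E12.5 has the highest Nduf share at 1.47%, while the complex V and citric acid cycle shares are highest in the adult libraries.

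Set beside the other complexes in adult against E12.5, every complex held genes called in both directions. By limma, 1 of 8 complex II genes rose and 4 fell, 6 of 15 and 8 of 15 for complex III, 8 of 23 and 11 of 23 for complex IV, and 9 of 18 and 6 of 18 for complex V, against 11 of 37 and 20 of 37 for the complex I subunits and 23.4% and 48.4% of all genes tested. Citric acid cycle genes rose in 11 of 14 and fell in 0 (limma, median 1.00). The lists of complexes II to V also hold assembly factors, whereas the complex I count given here is of subunits alone. The difference between these lists was not tested. Single genes of the other complexes moved as far as Ndufb4 and Ndufa3 did, such as Uqcrb of complex III, which rose by 6.29, and Cox6a1 of complex IV, which fell by 7.45.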

How the data were processed

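The deposited values of 6 poly(A) RNA-seq libraries were analysed, per the file contents 23284 symbols with 1 value each and no coordinates. The authors' deposited numbers are log2 values of FPKM + 1, as the whole-number steps of low genes show. Per the submitters' processing notes, build mm9 and the tools BWA 0.5.9, CASAVA 1.8.2, HTSeq 0.5.3, MACS 1.4 and TopHat 1.4 were used in the series; their role for these files was not given in the sources used. FPKM is relative to every mapped read, those on Rn45s included. Rn45s took 652906 of 14015985 mapped reads in banding and 552795 of 12086929 in sham. Its part in the lower levels of these libraries was not tested.

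FPKM steps gave exon lengths, mapped totals and whole reads (98.8% of 98043 values above 0, within 0.001 of a read, where the remaining values were not attempted). Adult and E12.5 were compared with limma 3.58.1 (R 4.3.3, trend, Benjamini-Hochberg at 0.05) over 12658 genes with at least 1 FPKM in 1 of the 3 libraries. The fit was also run on simulated data in which E12.5 was given the noise of the adult pair. That run therefore cannot test whether the lone E12.5 library varies like that pair, and nothing is drawn from it. Median-of-ratios scaling used genes above 0 in every library compared. Other comparisons have 1 library per side at least once and carry no p-value. Ratios of reads carry exact conditional binomial 95% intervals, and shares exact Clopper-Pearson intervals, both for counting error only. Depth was 12086929 to 21056784 mapped reads per library. Alternatives were the pseudocount, filter, scaling, fold, length class, each adult library and pseudogene members.

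The members, gene lists and rules were chosen with earlier results of these data known. A single member is not reported here by itself; it enters counts and sums over all members but not the figures of single genes or the counts of core subunits. Named genes were core subunits, all Ndufaf genes, Ndufa4 and Ndufa4l2, the 5 largest and smallest adult differences, the 3 largest and smallest in the other main comparisons, members with a pseudogene, and up to 3 genes per other list. Genes outside this rule (Gata4 and Rn45s apart) are given by their difference. Promoter windows and symbols came from RefSeq (GRCm38.p6). The windows printed were chosen after values were seen.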

Additional observations from a re-analysis of the deposited data

How the results depend on the processing

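Limits lie in the design: the only spread is that of the adult pair, and the recovered reads set counting error alone. In 58 of 78 alternatives the result stayed on its side of the threshold or within 1.5 times its count, or within the spread of the adult pair. The limma calls ranged from 12 to 16 higher and from 16 to 22 lower, and leaving out an adult library could not be fitted, since no residual degree of freedom is then left. The rule of size counted 4 members in the KO-labelled library against E12.5 at 1.5-fold, where it had counted 0 at 2-fold. Between sham and E12.5 it counted 16 members after median-of-ratios scaling instead of 26. Centring on genes of the same length class, an alternative chosen after seeing the data, gave 17 there (10 higher and 7 lower, where the deposited scale had 3 and 23), and 11 higher and 8 lower between adult and E12.5 (9 and 16), and took the members higher in banding than in sham from 28 to 15. The median difference of the subunits minus that of the assembly factors, which is not the distance between their median levels, also moved. In adult against E12.5 it was 0.32 without members that have a named pseudogene, where it had been 0.21. In banding against sham it was 0.26 among members with at least 5 FPKM, where it had been 0.06. In sham against E12.5 it was 0.87 with a pseudocount of 0.1, where it had been 0.78. These contrasts use only the 4 Ndufaf genes. For the 16 further assembly factors the median difference in sham against E12.5 was -1.11, close to -1.07 for the subunits. Without each adult library in turn, the rule of size gave 24 members in both cases for adult against E12.5 (25 with both). For sham against adult it gave 17 in both (16 with both). The median difference of the subunits minus that of the assembly factors then ranged from 0.22 to 0.27 and from 0.15 to 0.26 in these comparisons. The share of reads on Nduf genes without the 50 genes with the most reads in any library was 1.86% at E12.5, 1.499% in the KO-labelled library, 1.77% and 1.75% in the adult pair, 1.65% after banding and 1.71% after sham. Without members that have a named pseudogene it was 1.26% at E12.5, 1.01% in the KO-labelled library, 1.14% and 1.13% in the adult pair, 1.02% after banding and 1.05% after sham. E12.5 remained the highest library under both, but no setting left out Ndufa4 by itself. The cause of each of these moves was not tested, apart from the smaller number of genes or reads that a setting keeps. No paired analysis was possible because only the adult libraries carry replicate numbers.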

Other observations

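Genes that supply complex I with its cofactors and substrate also moved in both directions between E12.5 and adult heart. Of 10 genes of ubiquinone synthesis, which make the acceptor of its electrons, 6 rose and 2 fell by limma (median 0.60, against -0.51 over all genes tested, of which 23.4% were called higher and 48.4% lower). Adck3 stood at 6.07 and 6.03 in adult against 1.75 in E12.5, and Coq9 at 7.57 and 7.67 against 5.09, while Coq6 stood at 2.65 and 2.17 against 4.92. Of 12 genes of iron-sulphur cluster assembly, 4 rose and 7 fell (median -0.63), shares not far from those of all genes. Among them Iscu, the scaffold on which clusters form, stood at 6.73 and 6.79 in adult against 3.65, and the ferredoxin gene Fdx1l at 0.38 and 0.39 against 3.54.

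Of 16 regulators of mitochondrial genes, 5 rose and 3 fell by limma (median 0.19), beside the same 23.4% and 48.4% of all genes. Tfb2m, a mitochondrial transcription factor, stood at 4.64 and 4.56 in adult against 1.77 in E12.5, and Ppara, a nuclear receptor of fatty acid metabolism, at 2.73 and 2.98 against 0.85. The coactivator gene Pprc1 went the other way, at 1.77 and 1.42 against 3.27.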
